A study of Mus musculus with 9 samples.

Results

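The genes described here are 9 members of the BCL2 family and Trp63, 10 of the 23420 genes counted in each library. They were taken by symbol (Bcl2, Bcl2l1, Mcl1, Bax, Bak1, Bcl2l11, Bbc3, Pmaip1, Bid and Trp63), and all 10 were found and passed the filter on low counts. Ovaries of wild-type CD1 mouse embryos were taken on embryonic day 16 and kept for 24 hours on culture inserts in medium without phenol red with insulin, transferrin, selenium, linoleic acid, antibiotics and an antifungal agent. The medium held recombinant human BMP2 at 50 ng/ml, estradiol-17β (E2) at 3.67 µM, or vehicle. RNA-seq read counts came from 3 libraries of each of these 3 groups, 9 libraries in all, and the libraries held 30418674 to 34320077 counts in genes. The group of a library follows from its title, on the reading that the prefix B2 stands for BMP2 and the prefix C for vehicle. Whether each library had its own culture or animals, and how many ovaries it pools, is not labelled. The p-values therefore cover the spread of 3 libraries a group, which may be technical.

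The BCL2 family decides whether the outer mitochondrial membrane is opened in apoptosis. BCL2, BCL-XL (from Bcl2l1) and MCL1 keep it closed, BAX and BAK (from Bak1) form the pores, and the BH3-only proteins BIM (Bcl2l11), PUMA (Bbc3), NOXA (Pmaip1) and BID relay death signals by binding the others. In the mouse many oocytes are lost while germ cell cysts break down and primordial follicles form. Bax and the p53 relative p63 (Trp63) take part in oocyte loss, and p63 in oocytes acts after DNA damage through PUMA and NOXA. The counts are of whole ovaries, in which fewer cells of a type and less RNA per cell cannot be told apart.

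Set directly against each other, BMP2 and E2 differed in 4 of the 10 genes, Bcl2l1, Mcl1, Bcl2l11 and Pmaip1. With E2, Bcl2l1 rose to 1.23-fold of vehicle, and the BH3-only genes Bcl2l11 and Pmaip1 fell, being 1.24-fold lower and 1.23-fold lower. With BMP2, these 3 genes had log2 fold changes between 0.0034 and 0.030 that did not pass, and Mcl1 rose 1.07-fold. Bax was 1.08-fold higher with BMP2 and 1.09-fold higher with E2, and Trp63 1.54-fold and 1.56-fold higher. Calls are at an adjusted p under 0.05 in edgeR's quasi-likelihood test, adjusted by the Benjamini-Hochberg method over 16360 genes.

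Against vehicle, 3 of the 10 genes were called with BMP2, all higher, where 13.7% of all tested genes were called (6.84% higher and 6.85% lower). With E2, 5 of 10 were called, 3 higher and 2 lower, where 32.3% of all tested genes were (15.8% higher and 16.5% lower). Between BMP2 and E2, 4 of 10 were called, 3 higher and 1 lower with BMP2, against 28.2% of all (14.1% higher and 14% lower). BMP2 libraries did not overlap vehicle libraries for 4 of the 10 genes (28% of all tested genes), E2 libraries did not overlap vehicle libraries for 6 (41.2% of all), and BMP2 libraries did not overlap E2 libraries for 5 (39.6% of all). The median log2 fold change of the 10 genes was 0.028 with BMP2 and -0.0044 with E2, where the medians of all tested genes were -0.0015 and -0.0026. The median size of the change, without its sign, was 0.037 with BMP2 and 0.15 with E2, against 0.067 and 0.097 for all tested genes. Both treatments are set against the same 3 vehicle libraries, so the comparisons are not independent of each other.

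The sequence before the transcription start is shown for 3 members, Bcl2l1 and Bcl2l11 because they moved in opposite directions with E2, and Bax because it was higher with both treatments. Each is the 250 bases before a RefSeq start on GRCm38.p6, 5′ to 3′ on the gene's strand, and capitals mark a match to any of the 6 motifs named after the sequences. Bcl2l1 has no match in this window.
Bcl2l1, minus strand, chr2:152831729-152831978: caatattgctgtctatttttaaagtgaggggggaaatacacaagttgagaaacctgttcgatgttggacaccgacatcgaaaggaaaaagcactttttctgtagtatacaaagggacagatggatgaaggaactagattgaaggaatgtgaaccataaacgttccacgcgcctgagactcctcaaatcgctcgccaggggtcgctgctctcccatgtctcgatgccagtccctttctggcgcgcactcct
Bcl2l11, plus strand, chr2:128125788-128126037: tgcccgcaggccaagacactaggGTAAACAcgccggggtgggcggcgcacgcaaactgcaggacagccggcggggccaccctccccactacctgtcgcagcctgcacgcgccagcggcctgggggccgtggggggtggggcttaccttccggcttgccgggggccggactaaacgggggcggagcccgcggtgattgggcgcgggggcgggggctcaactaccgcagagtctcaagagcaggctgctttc
Bax, minus strand, chr7:45466899-45467148: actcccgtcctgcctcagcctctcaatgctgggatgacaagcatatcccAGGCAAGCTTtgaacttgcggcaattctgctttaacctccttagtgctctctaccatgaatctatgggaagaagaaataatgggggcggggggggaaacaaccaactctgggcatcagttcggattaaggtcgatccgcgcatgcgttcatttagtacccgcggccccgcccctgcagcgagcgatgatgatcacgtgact

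Motifs were searched on both strands in 13 such windows of 8 members, all but Pmaip1 and Trp63. The full oestrogen response element (GGTCA, 3 bases of any kind, then TGACC) lay in 0 of the 13 windows and in 0.0639% of all 32851 promoter windows of the table. Its arm alone (GGTCA), which the full element contains, lay in 2 of the 13 windows (Bcl2l1 and Bcl2l11) and in 35.2% of all. In Bcl2l1 the 3 arms lay before an inner start, at -247 to -243, -104 to -100 and -49 to -45, in a window that overlaps an annotated exon of the gene. A FOXO site (GTAAACA, in 3.17% of all windows) lay in 2 of the 13 windows. It was at -227 to -221 in that of Bcl2l11 printed above and at -167 to -161 in a window of Bbc3, which passed in no comparison. A p53 family decamer (7.13% of all) lay in 1 of the 13 windows, that of Bax, at -201 to -192. The AP-1 site (TGANTCA, 6.75% of all) lay in 0 of the 13 windows. A GC-rich SMAD1/5 site (GGCGCC, 9.59% of all) lay in 4 of the 13, which belong to Bcl2, Bcl2l11 and Bbc3. A match is only a run of letters, and binding was not measured.

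Levels between genes can be set side by side only per length, here as TPM-like values from the counts and the summed exon length of each gene in GENCODE vM21. With vehicle, Mcl1 was the highest of the 10 genes at 187 ± 1.90 (SD, n = 3), and Bax followed at 108 ± 2.97. Bak1 stood at 54.4 ± 3.65 and Bcl2l1 at 45.2 ± 0.891, so the pore-forming genes and 2 of the 3 protective genes led the order. Pmaip1 (25.7 ± 0.501), Bid (18.0 ± 0.231), Bcl2 (13.0 ± 0.167), Bcl2l11 (10.7 ± 0.202) and Bbc3 (8.80 ± 0.184) followed, and Trp63 came last at 0.656 ± 0.155. The order was the same with BMP2 and with E2, and neighbours in it did not overlap between libraries of BMP2 or of vehicle. With E2 the libraries of Bak1 and Bcl2l1 overlapped (57.2 to 60.0 against 54.3 to 58.8), as did those of Bcl2l11 and Bbc3 (8.30 to 9.09 against 7.29 to 8.84). With the length of the longest transcript in place of the summed exons, Bcl2l1 (58.9 ± 1.17) stood above Bak1 (40.1 ± 2.67) and Bid (19.3 ± 0.241) above Pmaip1 (18.8 ± 0.359) in vehicle, and Bcl2l11 (12.5 ± 0.240) above Bcl2 (12.04 ± 0.151). On this scale the vehicle libraries of Bid (19.05 to 19.49) and Pmaip1 (18.43 to 19.12) overlapped. With E2, Bcl2l11 (10.3 ± 0.517) stood below Bcl2 (12.2 ± 0.344).

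**Figure D1:**
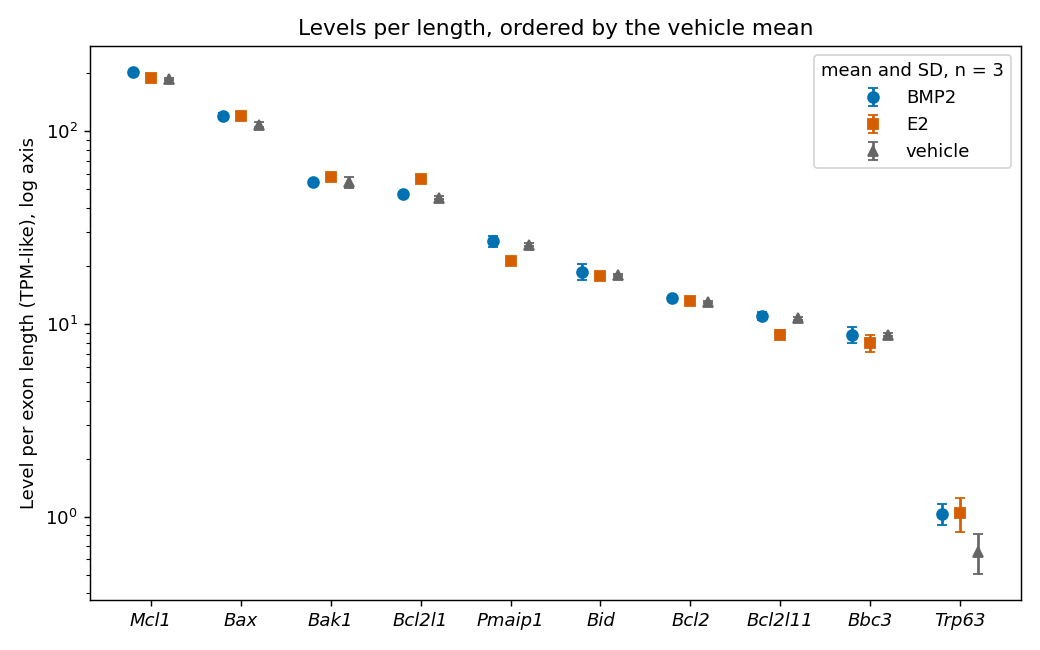
Level per exon length of the 10 genes (TPM-like, log axis) in libraries with BMP2, E2 and vehicle, as the mean with SD of 3 libraries, ordered by the vehicle mean. Mcl1 (187 with vehicle) is the highest and Trp63 (0.656) the lowest in all 3 groups.

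Among the protective genes, Bcl2l1, on chromosome 2 from 152780668 to 152831728 (minus strand, GRCm38), encodes BCL-XL, which keeps fetal germ cells of the mouse alive. Its CPM (counts scaled to library size with TMM factors) was 64.1, 69.3 and 66.8 with E2, against 54.7, 53.04 and 54.7 with vehicle. All E2 libraries were above all vehicle libraries, with a log2 fold change of 0.30 ± 0.035 (SE, adjusted p = 2.3e-13). With BMP2 it had 55.4, 55.6 and 54.6 CPM, which overlapped vehicle, and the log2 fold change was 0.027 with a 95% interval of -0.043 to 0.097 (adjusted p = 0.693). Set directly against E2, BMP2 libraries were lower by 0.27 on the log2 scale (-0.27 ± 0.034, adjusted p = 1.1e-11). Counts per gene do not separate the long protective form of BCL-XL from its short form, which promotes death.

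Mcl1, on chromosome 3 from 95658788 to 95663176, encodes a short-lived protective protein that NOXA binds. It had 177, 179 and 179 CPM with BMP2, against 169, 167 and 165 CPM with vehicle. The BMP2 libraries all lay above the vehicle libraries, with a log2 fold change of 0.096 ± 0.023 (SE, adjusted p = 9.6e-04). With E2 it had 161, 166 and 171 CPM, on both sides of the vehicle libraries (log2 fold change -0.0049, 95% interval -0.051 to 0.041, adjusted p = 0.900). Between the treatments Mcl1 was higher with BMP2 than with E2 (log2 fold change 0.10 ± 0.023, adjusted p = 1.7e-04).

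Bcl2, on chromosome 1 from 106538178 to 106714274, gave 31.8, 32.4 and 31.6 CPM with BMP2, 30.05, 31.7 and 31.0 CPM with E2 and 31.5, 30.9 and 30.6 CPM with vehicle. It passed in no comparison, with log2 fold changes of 0.042 (95% interval -0.047 to 0.13) for BMP2 and -0.0039 (-0.095 to 0.087) for E2 against vehicle. The BMP2 libraries lay just above the vehicle libraries, and the E2 libraries overlapped them, 1 below, 1 within and 1 above their range. An antisense gene covers 6.09% of its exon bases, and the reads of the 2 genes cannot be told apart without a stranded library.

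**Figure D2:**
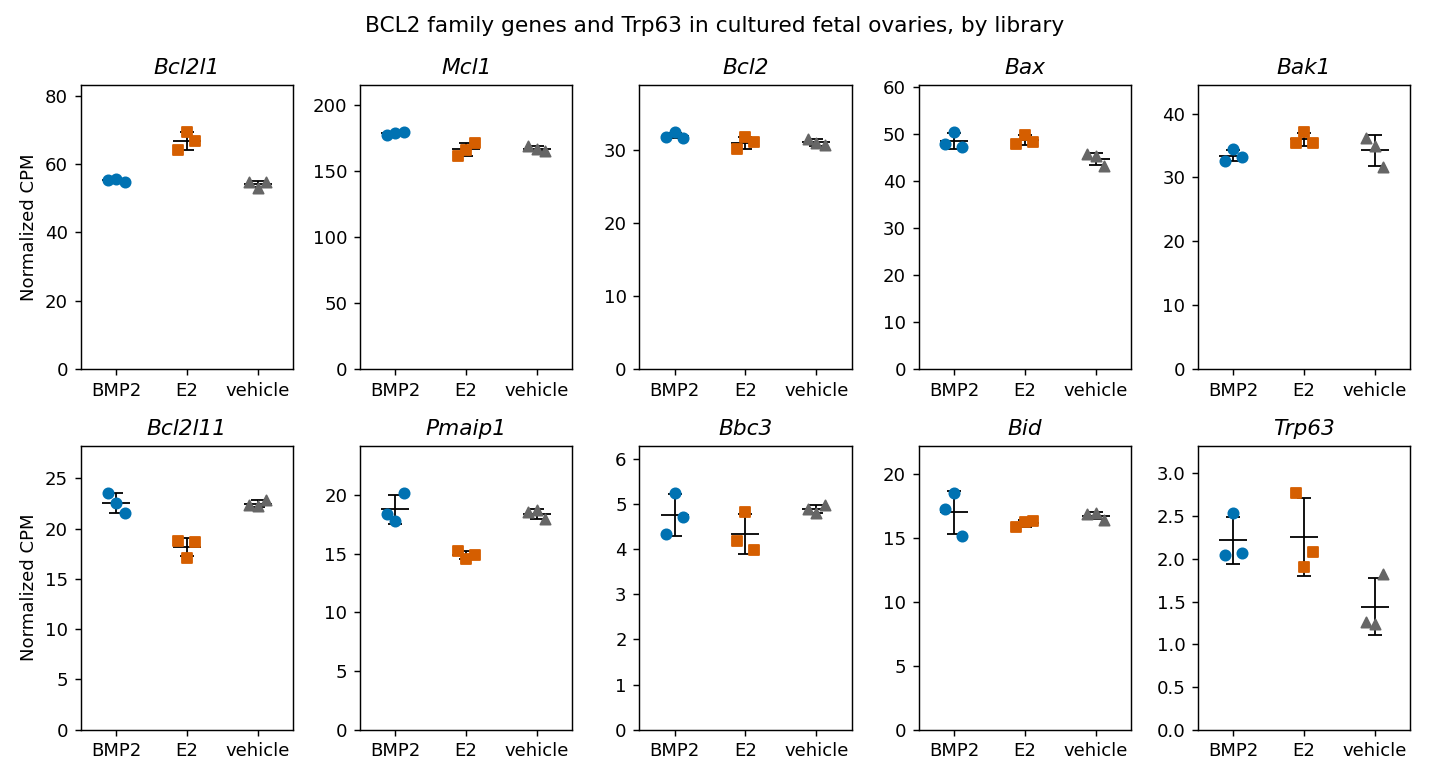
Normalized CPM of each of the 10 genes in the 9 libraries (points), with the mean and SD of 3 libraries (bars), for BMP2, E2 and vehicle; axes start at 0 and differ between genes. The E2 libraries of Bcl2l1 lie above all others, those of Bcl2l11 and Pmaip1 below all others, and the vehicle libraries of Trp63 below all treated ones.

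Of the pore-forming genes, Bax, on chromosome 7 from 45461697 to 45466898, rose with both treatments by little. It had 47.7, 50.3 and 47.2 CPM with BMP2, 47.8, 49.7 and 48.3 CPM with E2 and 45.6, 45.2 and 43.0 CPM with vehicle. All treated libraries were above all vehicle libraries, with log2 fold changes of 0.12 ± 0.038 for BMP2 (adjusted p = 0.0243) and 0.12 ± 0.039 for E2 (adjusted p = 0.0073). Bax did not pass with BMP2 when BMP2 replicate 2 (adjusted p = 0.174) or vehicle replicate 3 (0.140) was left out, or in DESeq2 (0.082), nor with E2 when vehicle replicate 3 (0.058) or E2 replicate 2 (0.0521) was left out. BMP2 and E2 libraries overlapped (log2 fold change -0.0070, 95% interval -0.082 to 0.068). A second protein-coding gene of the same strand shares 12.2% of the exon bases of Bax.

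Bak1, on chromosome 17 from 27019810 to 27029009, had 32.6, 34.4 and 33.2 CPM with BMP2, 35.4, 37.1 and 35.4 CPM with E2 and 36.2, 35.0 and 31.6 CPM with vehicle. Neither treatment passed against vehicle (adjusted p = 0.669 for BMP2 and 0.244 for E2), and the vehicle libraries were the most spread. All BMP2 libraries lay below all E2 libraries (log2 fold change -0.11 ± 0.045, adjusted p = 0.0616), which passed with only these 2 groups in the fit (adjusted p = 0.0466), with a replicate block (0.0494), without BMP2 replicate 2 (0.048) and with the GC content and length trend removed (0.00419). With that trend removed, E2 against vehicle passed too (log2 fold change 0.12, adjusted p = 0.027). Genes on the opposite strand cover 25.5% of its exon bases.

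The ratio of Bax to Bcl2 counts, a common summary of the balance between a pore former and a protector, was 1.50, 1.55 and 1.49 with BMP2, 1.59, 1.57 and 1.56 with E2 and 1.45, 1.46 and 1.41 with vehicle. All treated libraries were above all vehicle libraries. Summed per length over the 6 genes that promote death (Bax, Bak1, Bcl2l11, Bbc3, Pmaip1 and Bid) and over the 3 that protect, the ratio was 0.904 ± 0.0217 with BMP2, 0.902 ± 0.0239 with E2 and 0.922 ± 0.0244 with vehicle (SD, n = 3 each), so these groups differed by less than the spread between libraries. The sum over the genes that protect was 265 ± 1.02 with BMP2 and 259 ± 7.54 with E2, against 245 ± 2.33 with vehicle. On this per-length scale all treated libraries were above all vehicle libraries. The sum over the genes that promote death was 239 ± 6.50 with BMP2 and 234 ± 4.19 with E2, against 226 ± 6.95 with vehicle, and here E2 and vehicle libraries overlapped. The per-length values are scaled to their own total in each library, without TMM factors, so the sums are not on the CPM scale. Mcl1, the largest of the genes that protect, was at 189 with E2 against 187 with vehicle per length. In CPM it was at 166 with E2 against 167 with vehicle. From CPM divided by exon length, the protective sum was lower in E2 replicate 1 than in vehicle replicate 1. On that scale, which carries TMM factors, the E2 and vehicle libraries therefore overlapped, while the BMP2 libraries stayed above all vehicle libraries. No test was made of these ratios and sums.

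Of the BH3-only genes, Bcl2l11 and Pmaip1 fell with E2. Bcl2l11, on chromosome 2 from 128126038 to 128162547, encodes BIM, which can bind every protective member and activate BAX. Its CPM was 18.8, 17.1 and 18.7 with E2, against 22.3, 22.2 and 22.9 with vehicle. The E2 libraries all lay below the vehicle libraries, with a log2 fold change of -0.31 ± 0.056 (SE, adjusted p = 2.3e-06). With BMP2 it had 23.5, 22.5 and 21.6 CPM, around the vehicle values (log2 fold change 0.0034, 95% interval -0.10 to 0.11).

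Pmaip1 encodes NOXA, which binds MCL1 and is induced by p53 family factors. It had 15.2, 14.5 and 14.9 CPM with E2, against 18.5, 18.7 and 17.9 CPM with vehicle, and again no E2 library reached a vehicle library. The log2 fold change was -0.30 ± 0.062 (adjusted p = 2.2e-05). With BMP2 the CPM was 18.3, 17.8 and 20.2 (log2 fold change 0.030, 95% interval -0.086 to 0.15, against vehicle). Set directly against E2, BMP2 libraries were higher for Bcl2l11 (log2 fold change 0.31 ± 0.056, adjusted p = 1.7e-06) and Pmaip1 (0.33 ± 0.061, adjusted p = 2.7e-06), with no overlap for either gene.

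Bbc3 and Bid passed in no comparison. Bbc3, on chromosome 7 from 16308393 to 16318205, encodes PUMA, and its CPM was 4.33, 5.25 and 4.71 with BMP2, 4.19, 4.83 and 3.98 with E2 and 4.88, 4.80 and 4.98 with vehicle. Its counts were 126 to 176 per library, and the interval for E2 against vehicle was wide (log2 fold change -0.17, 95% interval -0.40 to 0.050, adjusted p = 0.254). Bid, on chromosome 6 from 120891930 to 120916853, links death receptors to mitochondria once caspases cut its product, and had 17.3, 18.5 and 15.2 CPM with BMP2, 15.8, 16.3 and 16.3 CPM with E2 and 16.8, 16.9 and 16.4 CPM with vehicle. The E2 libraries of Bid lay below the vehicle libraries, by a difference that did not pass (log2 fold change -0.052, 95% interval -0.18 to 0.073, adjusted p = 0.580), and Bcl2l13 on the opposite strand covers 17.7% of its exon bases.

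**Figure D3:**
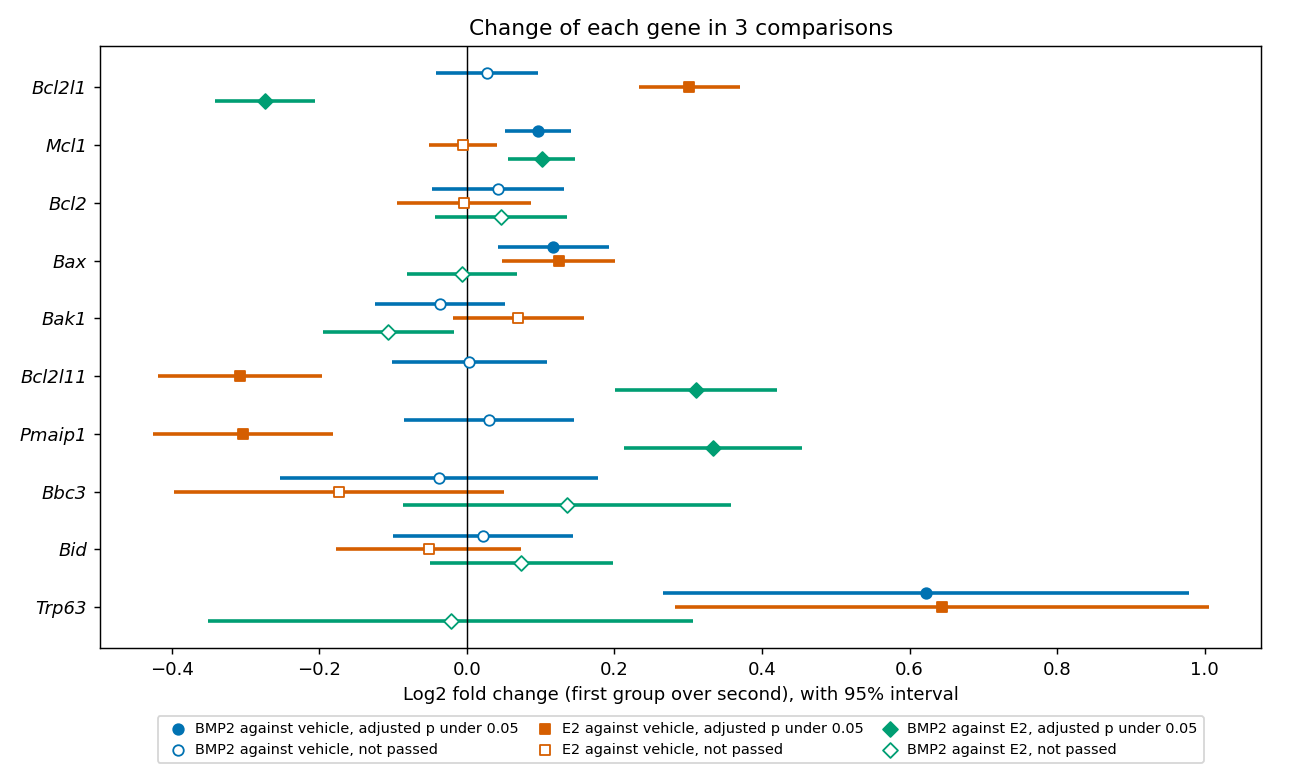
Log2 fold change of each of the 10 genes with its 95% interval in the 3 comparisons, on the scale of the first group over the second; filled points have an adjusted p under 0.05 and open points did not pass. Bcl2l1 (0.30), Bcl2l11 (-0.31) and Pmaip1 (-0.30) stand apart from 0 with E2 but not with BMP2, and Trp63 (0.62 and 0.64) has the widest intervals.

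Trp63, on chromosome 16 from 25683763 to 25892102, encodes p63, a p53 relative whose TA form is made in mouse oocytes from late fetal life and whose shorter form marks basal cells of stratified epithelia. It was the lowest of the 10 genes, with 70, 85 and 71 counts with BMP2, 84, 60 and 66 with E2 and 43, 38 and 59 with vehicle. In CPM these were 2.05, 2.53 and 2.06 with BMP2, 2.77, 1.90 and 2.09 with E2 and 1.26, 1.23 and 1.82 with vehicle. Every treated library was above every vehicle library, and the log2 fold changes were 0.62 ± 0.18 for BMP2 (adjusted p = 0.0095) and 0.64 ± 0.18 for E2 (adjusted p = 0.0030). The difference between BMP2 and E2 did not pass (log2 fold change -0.022, 95% interval -0.35 to 0.31, adjusted p = 0.944). Trp63 did not pass with BMP2 when BMP2 replicate 2 (adjusted p = 0.0863), vehicle replicate 1 (0.0803) or vehicle replicate 2 (0.0602) was left out, or in DESeq2 (0.0634), nor with E2 when E2 replicate 1 was left out (0.0743). Counts per gene do not separate the TA form from the shorter one.

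Some genes used as markers of germ cells and of stratified epithelium moved with treatment. Whether the tissue held such epithelium was not tested. Of 9 germ cell markers, 7 were higher with BMP2 and 7 with E2, where 6.84% and 15.8% of all tested genes were. The summed CPM of the 9 was 1240 to 1269 with BMP2, 1267 to 1273 with E2 and 1144 to 1211 with vehicle. Dazl and Sycp3, which gave the largest shares of this sum (375 and 292 CPM in vehicle), passed with neither treatment. Their log2 fold changes were -0.040 and 0.0014 with BMP2 and -0.041 and 0.035 with E2. The summed CPM of 8 markers of stratified epithelium was 15.5 to 16.7 with BMP2, 11.2 to 11.98 with E2 and 18.4 to 20.5 with vehicle. Of the 5 that could be tested, 2 were lower with BMP2, and 1 was higher and 2 were lower with E2. Among all tested genes, 6.85% were lower with BMP2 and 16.5% with E2. The basal keratin gene Krt5 had total counts of 4 with BMP2, 4 with E2 and 6 with vehicle over 3 libraries each, while Krt14 had 743, 371 and 885. The part of either cell type in the difference of Trp63 was not tested.

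Markers of other cell types moved with E2 as well. Of all tested genes, 15.8% were called higher and 16.5% lower with E2. With BMP2 these shares were 6.84% and 6.85%. Beside the changes of Bcl2l1, Bcl2l11 and Pmaip1, 7 of 8 markers of surface epithelium and mesothelium were lower and 1 higher (summed CPM 777 to 782 with E2 against 954 to 978 with vehicle). Of 9 pregranulosa markers 3 were higher and 3 lower (1986 to 2013 against 2150 to 2210). Of 8 macrophage markers 4 were lower (74.6 to 75.6 against 84.4 to 88.3), of 10 neutrophil granule markers 6 were lower (57.6 to 63.1 against 78.9 to 82.7), and all 5 tested erythroid markers were higher (136 to 141 against 109 to 115). Of 7 endothelial markers 5 were higher and 1 lower (212 to 223 against 214 to 221), and of 5 tested mesonephric markers 2 were lower (127 to 136 against 146 to 151). With BMP2, 7 of 8 markers of surface epithelium and mesothelium were lower (864 to 877 against 954 to 978), 3 of 10 neutrophil markers were higher and 6 lower (49.9 to 50.7 against 78.9 to 82.7), and 0 of 8 macrophage markers were called (80.5 to 81.9 against 84.4 to 88.3). The part of these cells in the members' differences was not tested. The labelled tissue had the markers of an ovary, with Ddx4 of germ cells at 177 ± 2.74 CPM and Foxl2 of pregranulosa cells at 56.5 ± 1.26 CPM in vehicle (SD, n = 3). Of the other lists with BMP2, 4 of 9 pregranulosa markers were higher and 2 lower, 1 of 7 endothelial and 2 of 5 tested erythroid markers were higher, and 2 of 5 tested mesonephric markers were lower.

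Genes whose pattern was most like that of a member were sought among 14390 other genes, those whose CPM averaged at least 1, by Pearson's r of log2 CPM over the 9 libraries, for Trp63 and for Bcl2l1, the member with the smallest adjusted p. For Bcl2l1 they were Itm2b (r = 0.997), Rpgrip1l (r = 0.989) and Ctnnbip1 (r = 0.987). Each had its highest levels with E2, as Ctnnbip1 with 45.6 ± 1.15 CPM with E2, 36.4 ± 0.449 with BMP2 and 35.5 ± 1.62 with vehicle. For Trp63 they were Ppm1h (r = 0.936), Abcc10 (r = 0.932) and Dnajc3 (r = 0.924), and Ppm1h had 4.27 ± 0.177 CPM with BMP2, 4.56 ± 0.421 with E2 and 3.38 ± 0.331 with vehicle. The 9 points fall into 3 treatment groups and are not independent of each other.

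Of the other genes of the BCL2 family, 13 of 16 were tested, and with E2 2 rose, 3 fell and 8 did not pass (median log2 fold change -0.12, against -0.0026 for all tested genes). Bok, which can open the mitochondrial membrane without BAX and BAK, fell (29.96 ± 1.99 CPM with E2 against 39.1 ± 0.679 with vehicle, log2 fold change -0.39 ± 0.045, adjusted p = 4.2e-13). The BH3-only genes Bad (log2 fold change -0.19 ± 0.043) and Bmf (-0.18 ± 0.045, adjusted p = 9.0e-04) fell with E2 too. Bnip3l, a mitophagy receptor, was higher with BMP2 (log2 fold change 0.082 ± 0.020) and with E2 (0.083 ± 0.020), and Bcl2l2, which encodes the protective BCL-W, was higher with E2 (0.092 ± 0.032, adjusted p = 0.0176). That last call was lost without vehicle replicate 2 and without E2 replicate 2 (adjusted p up to 0.123). With BMP2, 2 genes rose, Bnip3l and Bmf, and 11 did not pass (list median 0.057), where 6.84% of all tested genes were higher. Bmf, at log2 fold change 0.13 ± 0.043 (adjusted p = 0.0268), was not called without BMP2 replicate 1, BMP2 replicate 2, vehicle replicate 1 or vehicle replicate 2, or with DESeq2 (adjusted p up to 0.240). Set directly against E2, BMP2 was higher for Bok (log2 fold change 0.34), Bmf (0.31) and Bcl2a1b (0.64, adjusted p = 0.0232), the last a member of a cluster of near-identical copies whose reads are uncertain. Bcl2a1b was not called without BMP2 replicate 1, BMP2 replicate 3 or E2 replicate 1, or with DESeq2 (adjusted p up to 0.219).

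The p53 family and the kinases that report DNA damage to it moved by little with E2. The median size of the change, without its sign, was 0.040 with E2 and 0.066 with BMP2, against 0.097 and 0.067 for all tested genes. All 14 genes of this list were tested. With BMP2, 3 fell and 11 did not pass (median log2 fold change -0.058), where 6.85% of all tested genes were lower. With E2, 4 rose, 2 fell and 8 did not pass (median -0.0025), where 15.8% of all tested genes were higher and 16.5% lower. Trp53 itself stood at 84.3 ± 0.989 CPM with BMP2, 94.3 ± 3.23 with E2 and 93.8 ± 0.484 with vehicle, and fell with BMP2 (log2 fold change -0.15 ± 0.029, adjusted p = 2.0e-05). The kinase genes Atm (-0.10 ± 0.0215) and Atr (-0.13 ± 0.018, adjusted p = 3.6e-09) fell with BMP2 as well, and Atr with E2 (-0.067 ± 0.018). Mdm2 (0.12 ± 0.028) and Mdm4 (0.16 ± 0.026, adjusted p = 1.5e-07), which hold p53 in check, rose with E2. Chek2, whose product activates p63 in damaged mouse oocytes, was called higher with E2 (log2 fold change 0.23 ± 0.081, adjusted p = 0.0193), but not without vehicle replicate 1, vehicle replicate 2 or E2 replicate 3, or with DESeq2 (adjusted p up to 0.130). Csnk1a1, a casein kinase gene, was called lower (-0.055 ± 0.021, adjusted p = 0.0333), but not without vehicle replicate 2, vehicle replicate 3, E2 replicate 2 or E2 replicate 3, or with DESeq2 (adjusted p up to 0.175). Between the treatments 6 genes were lower with BMP2 than with E2 and 0 were higher (8 did not pass), against 14% and 14.1% of all tested genes. The 6 include Trp53 (-0.16 ± 0.029), Mdm4 (-0.22 ± 0.026) and Chek2 (-0.24 ± 0.080). Chek2 was not called without BMP2 replicate 2, BMP2 replicate 3 or E2 replicate 3, or with DESeq2 (adjusted p up to 0.103).

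Genes that p53 family factors induce went both ways with E2. The list holds 18 genes, and 4 rose, 7 fell and 7 did not pass (median log2 fold change -0.0033). Among all tested genes, 15.8% were higher and 16.5% lower. Eda2r, a receptor of the TNF family, rose to 30.9 ± 0.768 CPM with E2 against 11.7 ± 0.287 with vehicle (log2 fold change 1.39 ± 0.059, adjusted p = 1.7e-48). Perp, a membrane protein gene that p63 controls in mouse skin, rose to 3.53 ± 0.684 CPM with E2, against 1.75 ± 0.100 with vehicle (log2 fold change 1.00 ± 0.16, adjusted p = 3.5e-08). Plk2, a stress-induced kinase gene, rose by 0.17 on the log2 scale. Btg2, an antiproliferative gene, fell to 46.7 ± 2.66 CPM with E2, against 64.5 ± 0.271 with vehicle (log2 fold change -0.47 ± 0.036, adjusted p = 4.8e-24), and Sesn2, a stress-induced regulator of growth, fell by 0.43 on the log2 scale. Cdkn1a, which encodes the cell cycle inhibitor p21, fell with E2 (23.04 ± 1.05 CPM with E2 against 28.2 ± 1.37 with vehicle, log2 fold change -0.29 ± 0.051, adjusted p = 8.2e-07). Gadd45a was called lower (log2 fold change -0.29, adjusted p = 0.0065), but not without E2 replicate 3 (adjusted p = 0.0869).

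With BMP2, 2 of these 18 genes rose, 1 fell and 15 did not pass (median -0.035), where 6.84% of all tested genes were higher and 6.85% lower. The one that fell was again Cdkn1a (23.1 ± 0.414 CPM with BMP2 against 28.2 ± 1.37 with vehicle, log2 fold change -0.29 ± 0.050, adjusted p = 3.5e-06), which did not pass between BMP2 and E2 (log2 fold change 0.0050 ± 0.052, adjusted p = 0.961). Plk2 (log2 fold change 0.16 ± 0.032) and Btg2 (0.15 ± 0.033) rose. Set directly against E2, BMP2 was lower for Eda2r (log2 fold change -1.42), Perp (-1.05) and Zmat3 (-0.18) and higher for Btg2 (0.61), Sesn2 (0.35) and Gadd45a (0.28). In all, 4 genes were higher, 3 were lower and 11 did not pass, where 14.1% of all tested genes were higher and 14% lower. Zmat3 was not called without E2 replicate 3 (adjusted p = 0.0511), and Gadd45a not without E2 replicate 2 or E2 replicate 3 or with DESeq2 (adjusted p up to 0.127).

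Downstream of the mitochondria, 24 genes for the apoptosome, caspases, their inhibitors and mitochondrial factors were all tested. With E2, 5 rose, 4 fell and 15 did not pass (median log2 fold change -0.0037), where 15.8% of all tested genes were higher and 16.5% lower. Xiap, which encodes a direct caspase inhibitor, rose (271 ± 5.97 CPM with E2 against 249 ± 8.27 with vehicle, log2 fold change 0.12 ± 0.021, adjusted p = 8.9e-07), as did Casp9, the initiator caspase of this route (0.12 ± 0.037). The effector caspase gene Casp6 (-0.15 ± 0.033) and Dffa, the inhibitor of the apoptotic nuclease (-0.23 ± 0.056), fell. Cflar, whose product inhibits an initiator caspase, was called higher (0.097 ± 0.027), but not with the GC content and length trend removed (adjusted p = 0.0686). With BMP2, 1 gene fell and 23 did not pass (median -0.024), where 6.85% of all tested genes were lower. The gene that fell was Cycs, the cytochrome c gene (log2 fold change -0.096 ± 0.030, adjusted p = 0.0156), which was not called without BMP2 replicate 2, vehicle replicate 1 or vehicle replicate 3, or with DESeq2 (adjusted p up to 0.255). Between the treatments, 4 genes were higher with BMP2 and 4 lower, against 14.1% and 14% of all tested genes. Casp6 was higher with BMP2 (0.18), and Xiap (-0.11), Birc6 (-0.090) and Vdac2 (-0.082), whose product holds BAK inactive, were lower. Apaf1 (0.096, adjusted p = 0.0444) and Diablo (0.075, adjusted p = 0.0195) were called higher, but Apaf1 not without any single library of the 2 groups or with DESeq2 (adjusted p up to 0.178), and Diablo not without BMP2 replicate 1, BMP2 replicate 2, E2 replicate 2 or E2 replicate 3, or with DESeq2 (adjusted p up to 0.188).

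Of 15 regulators of BH3-only genes or of their products, all tested, 6 rose and 9 did not pass with BMP2 (median log2 fold change 0.079), and 6 rose, 3 fell and 6 did not pass with E2 (median 0.051). Among all tested genes, 6.84% were higher with BMP2, and 15.8% were higher and 16.5% lower with E2. Foxo1 and Foxo3, forkhead factors known to induce Bcl2l11, rose with E2 (log2 fold changes 0.23 ± 0.040 and 0.15 ± 0.034). Both were also called higher with BMP2 (Foxo1 0.11 ± 0.040, adjusted p = 0.0439; Foxo3 0.10 ± 0.034, adjusted p = 0.0319), and Foxo3 did not pass between the treatments (log2 fold change -0.046 ± 0.034, adjusted p = 0.337). With BMP2, neither was called without BMP2 replicate 1, BMP2 replicate 2, BMP2 replicate 3 or vehicle replicate 3, with the GC content and length trend removed or with DESeq2, nor Foxo1 without vehicle replicate 2 and Foxo3 without vehicle replicate 1 (adjusted p up to 0.181 for Foxo1 and 0.215 for Foxo3). Their relative Foxo4 fell with E2 (46.4 ± 1.22 CPM with E2 against 59.4 ± 1.34 with vehicle, log2 fold change -0.36 ± 0.037, adjusted p = 7.8e-16). Mapk9, a JNK kinase gene, rose with E2 (0.14 ± 0.025). Jun stood at 83.2 ± 3.52 CPM with BMP2, 61.3 ± 1.09 with E2 and 73.8 ± 1.08 with vehicle, so it rose with BMP2 (log2 fold change 0.17 ± 0.031) and fell with E2 (-0.27 ± 0.033, adjusted p = 4.3e-12). Fbxw7, which marks MCL1 for breakdown, rose with BMP2 (0.16 ± 0.030). It was also called higher with E2 (0.079 ± 0.031, adjusted p = 0.0381) and higher with BMP2 than with E2 (0.080 ± 0.030, adjusted p = 0.0359). The E2 call was lost without vehicle replicate 1, vehicle replicate 2, E2 replicate 1 or E2 replicate 2, with the GC content and length trend removed or with DESeq2 (adjusted p up to 0.172), and the call between treatments without BMP2 replicate 2, BMP2 replicate 3, E2 replicate 1 or E2 replicate 3, or with DESeq2 (adjusted p up to 0.157). Akt1 was called lower with E2 (-0.059, adjusted p = 0.0363), but not with the GC content and length trend removed (log2 fold change -0.011), without vehicle replicate 2, E2 replicate 2 or E2 replicate 3, or with DESeq2 (adjusted p up to 0.713). Set directly against E2, BMP2 was higher for Jun (0.44) and Foxo4 (0.33) and lower for Mapk9 (-0.13). In all, 5 genes were higher and 3 lower, against 14.1% and 14% of all tested genes. Foxo1 (-0.12), Huwe1 (-0.065) and E2f1 (0.15, adjusted p = 0.0426) were called too, but Foxo1 not without BMP2 replicate 1 or E2 replicate 3 (adjusted p up to 0.106), Huwe1 not with the GC content and length trend removed (log2 fold change -0.024, adjusted p = 0.163), and E2f1 not under 8 of the 13 alternatives, those without BMP2 replicate 1, BMP2 replicate 2, BMP2 replicate 3, E2 replicate 1 and E2 replicate 3 among them (adjusted p up to 0.208).

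**Figure D4:**
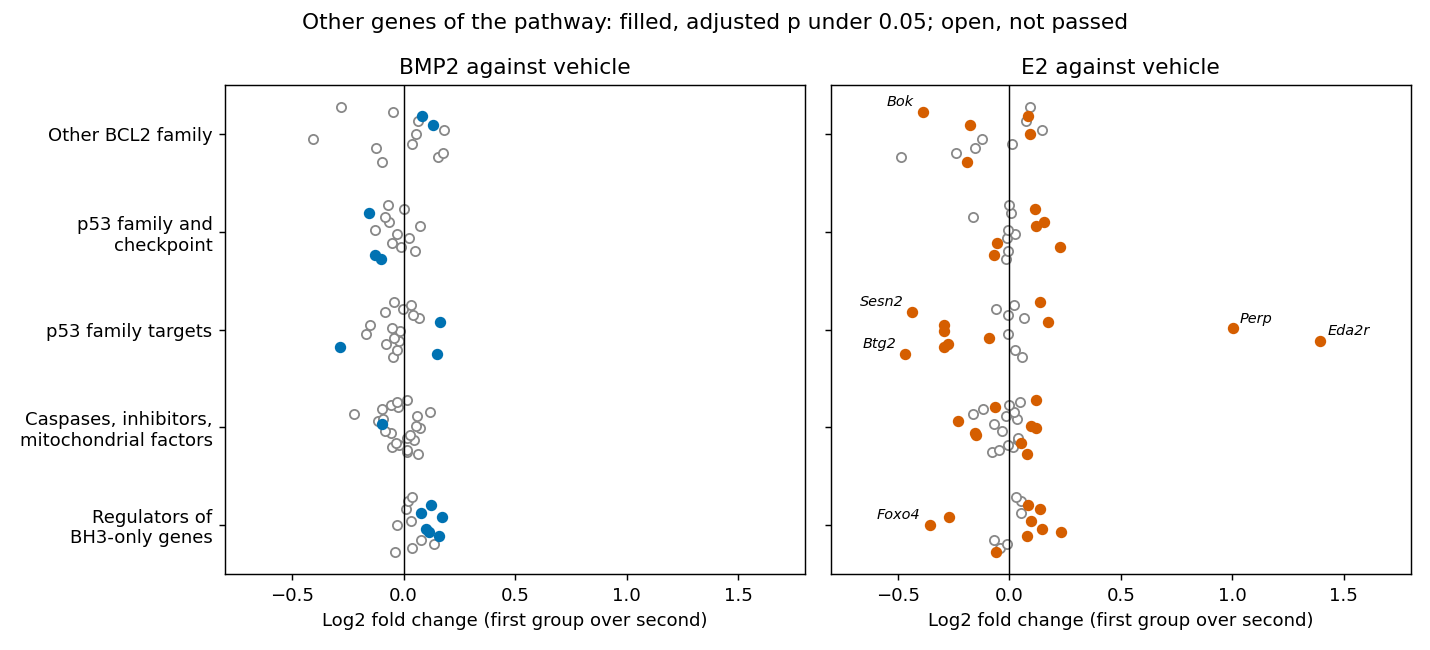
Log2 fold change of the tested genes of 5 further lists with BMP2 (left) and E2 (right), each over vehicle; filled points have an adjusted p under 0.05, open points did not pass, and called genes past 0.3 in size are named. Eda2r (1.39) and Perp (1.00) lie far from the other genes with E2, while no called gene with BMP2 is past 0.3.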

How the data were processed

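Each library has 1 deposited table of whole-number counts of reads, by gene symbol. The submitters' processing notes name TopHat2, HTSeq, DESeq2 and the build mm10. Neither the annotation nor the strand setting is given there. Libraries were made with an Illumina TruSeq version 2 kit from RNA with an integrity number over 9, per the labels' protocols, and that kit does not mark strand. The 5 summary rows of reads given to no gene (38.2% to 39.7% of a library's total) were left out.

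Counts were tested with edgeR 4.0.16 and R 4.3.3. The filter was filterByExpr (minimum count 10, minimum total 15). TMM factors and 1 robust quasi-likelihood fit, in which every group has its mean, used all 9 libraries, which leaves 6 residual degrees of freedom. A gene was called at a Benjamini-Hochberg adjusted p under 0.05 over 16360 genes. A standard error is the absolute log2 fold change over the square root of the F statistic. The fit was also run on simulated data with known changes, and no result given here rests on that run. Replicates varied beyond sampling noise, with a chi-square per gene of 1.51 to 2.39 between pairs of one group. This further spread was small, with a common coefficient of variation of 1.87% in edgeR. Pearson's r of log2 CPM within a group was 0.996 to 0.997. Whether the spread is technical or biological is not labelled.

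Locations are those of GENCODE vM21 (GRCm38, the same build as mm10), in which 98.4% of symbols were found, and promoter sequences are RefSeq's on GRCm38.p6. The members and lists were chosen with earlier results of these data known. Of each list, called genes whose CPM averaged 1 or more in the higher group are named, up to 3 in each direction per comparison by size of the change. Cdkn1a with E2, and Foxo1, Foxo3 and Fbxw7 in further comparisons, fall outside this rule and were added after their values were seen. Lists are otherwise given by counts. Single results of 2 genes that this rule names are not reported here. The alternatives run were DESeq2 1.42.0, median-ratio factors, other filters, only the groups compared, the replicate number as a block, an offset for GC content and length (splines with 5 degrees of freedom), a threshold of 0.01 and leaving out each library.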

Additional observations from a re-analysis of the deposited data

Results flagged for a closer look

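For 4 of the 10 genes the effects of the 2 treatments differed from each other, by the direct test of BMP2 against E2 in edgeR's quasi-likelihood model (Benjamini-Hochberg adjustment over all genes tested), where 28.2% of all tested genes were called. The log2 fold changes of BMP2 over E2 were -0.27 for Bcl2l1 (adjusted p = 1.1e-11), 0.10 for Mcl1 (1.7e-04), 0.31 for Bcl2l11 (1.7e-06) and 0.33 for Pmaip1 (2.7e-06). Each of these 4 was called in all 13 alternatives, and in each the 3 BMP2 libraries did not overlap the 3 E2 libraries.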

How the results depend on the processing

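The calls of Bcl2l1, Bcl2l11 and Pmaip1 with E2, of Mcl1 with BMP2 and of the same 4 genes between the treatments held in all 13 alternatives; log2 fold changes ranged from 0.27 to 0.34, -0.34 to -0.26, -0.32 to -0.29 and 0.086 to 0.11 for the first 4. The Bax call was lost in 3 of 13 alternatives with BMP2 and 2 with E2, and the Trp63 call in 4 and 1.

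For BMP2 against vehicle, DESeq2 called 1414 genes and 1 of the 10 members (Mcl1), and a threshold of 0.01 left 1318 genes, against 2239 genes and 3 members. Leaving out 1 library left 1 to 3 members called for BMP2, 4 to 5 for E2 and 4 to 5 between treatments. Per exon length, the log2 ratio of Bax to Bcl2 was 3.14 with BMP2, 3.19 with E2 and 3.06 with vehicle, against 0.60, 0.65 and 0.52 from counts, since Bcl2 has more exon bases.

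The 9 changes that turned direction were not called and lay between -0.038 and 0.030. With the GC content and length trend removed, Bcl2l11 was at -0.013 for BMP2 against vehicle and Trp63 at 0.0015 for BMP2 against E2. Without 1 library, log2 fold changes for BMP2 against vehicle ran from -0.092 to 0.0067 for Bak1, -0.028 to 0.035 for Bcl2l11, -0.11 to 0.026 for Bbc3, -0.025 to 0.067 for Pmaip1 and -0.043 to 0.098 for Bid. For E2 against vehicle they ran from -0.021 to 0.017 for Bcl2 and -0.025 to 0.017 for Mcl1, and for BMP2 against E2 from -0.036 to 0.011 for Bax and -0.13 to 0.15 for Trp63. The cause was not tested.

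Whether replicate numbers pair the libraries is not labelled and was not settled here. Deviations of same-numbered libraries correlated at -0.031 to 0.027, others at -0.059 to 0.049, and 4 of 9 libraries had their best match in another group under their own number. With the replicate block, 2512, 5512 and 4875 genes were called for BMP2 and E2 against vehicle and BMP2 against E2, against 2239, 5278 and 4607, and of the members 3, 5 and 5, the added one being Bak1.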
